A study of Mus musculus with 20 samples.

Results

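Amino acid transporters of the solute carrier families Slc1a, Slc3a, Slc6a, Slc7a, Slc36a, Slc38a and Slc43a were followed in the livers of fasted and refed mice with wild-type or mutant Prox1. Members were all genes of the count table whose symbol is one of these family names followed by a number, apart from 1 gene that is not analysed here. This rule took 58 of the 29915 genes in the table, and 30 of the 58 had at least 10 counts in at least 5 libraries and were tested, among 13995 genes tested in all. The other 28 members were too low to test. The rule goes by family name, and not every member carries amino acids across the plasma membrane. Slc38a9 and Slc38a7 act in the lysosome membrane, Slc43a3 carries purine bases, Slc6a2, Slc6a3 and Slc6a4 carry monoamines, and Slc6a8 carries creatine.

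The liver takes up amino acids from the portal blood and turns their carbon into glucose and their nitrogen into urea, and in fasting it draws on amino acids released by muscle. Uptake runs through carriers that differ in what they move and in what drives them. Sodium-coupled carriers of systems A and N (Slc38a) concentrate neutral amino acids and glutamine in the cell, cationic carriers (Slc7a1 and Slc7a2) bring in arginine, lysine and ornithine, and exchangers trade one amino acid for another. The exchangers of the Slc7a family reach the cell surface as pairs of a light chain with a glycoprotein heavy chain, Slc3a1 or Slc3a2. Slc38a2 transcription is known to respond to amino acid supply, and hormones of the fasted state such as glucagon are known to raise system A transport in hepatocytes.

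The study measured messenger RNA in livers of male mice on chow, to examine what SUMO modification of Prox1 does in the liver. Prox1 is a homeodomain transcription factor, SUMO is a small protein that is attached to lysines, and the K556R form lacks the lysine in question. The K556R form was a conditional knock-in restricted to hepatocytes, switched on through Cre when the mice were 8 weeks old, and tissue was collected after 11 more weeks at Zeitgeber time 15 to 17. Wild type and K556R livers were each collected from fasted and from refed mice, which gave 4 groups of 5 libraries. Since the titles call the genotypes Ctrl and Cre, what Cre alone does and what K556R does cannot be told apart, and the labels give neither the Cre driver or its delivery nor the length of the fast and of refeeding. The repeats are not stated to be separate animals, so p-values here reflect only how far these libraries differ, which may be technical.

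The 20 libraries held 33746054 to 50647297 counts each. There were 14 libraries in batch 1 and 6 in batch 2, of which 3 were K556R refed and 1 came from each other group, and the library names give the repeat number and the batch (1_b1). Prox1 messenger RNA, which does not show the mutation itself, lay at 121 to 223 CPM (counts scaled to a common library total) in wild type fasted libraries and 84.9 to 126 CPM in K556R fasted ones. In refed libraries it was 93.4 to 133 CPM in wild type and 57.7 to 89.4 CPM in K556R. Summed levels of 10 hepatocyte markers were 111000 to 167000 CPM. The 5 kidney markers summed to at most 0.0741 CPM, with Slc12a1, Kap and Aqp2 at 0 in every library. The 5 intestine markers summed to 45.8 to 92.8 CPM, with Sis and Cdx2 at 0 in every library. The 6 pancreas markers summed to 8.64 to 28.6 CPM, with Cpa1, Pnlip and Prss2 at 0 in every library. K556R fasted 1_b1 and K556R refed 1_b1 stood apart from the other 18 libraries in proliferation and lymphocyte markers. The 7 proliferation markers summed to 16.1 and 35.4 CPM in these libraries against 5.69 to 9.84 CPM elsewhere, and the 8 lymphocyte markers in the table to 14.2 and 16.5 CPM against 2.72 to 9.56 CPM. Wild type fasted 2_b1 had the highest sum of Kupffer cell and macrophage markers, 232 CPM against 42.7 to 147 CPM in the other libraries, and without it 4 members were higher and 7 lower after refeeding in wild type. In whole liver, fewer cells of a type and less RNA per cell cannot be told apart.

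A small number of carriers held most of the transporter reads. Levels of different genes were compared per kilobase of annotated exons, as the mean CPM per kilobase over all 20 libraries. By this measure Slc38a4 and Slc38a3, carriers of systems A and N, were the most abundant members, at 313 and 210 CPM per kilobase. Slc7a2, a cationic amino acid carrier, followed with 96.8, and Slc6a13, a carrier of GABA and taurine, with 89.5 CPM per kilobase. Slc38a2, the amino-acid-responsive system A carrier, had 24.3 CPM per kilobase and Slc6a12, the betaine carrier that lies next to Slc6a13 on chromosome 6, 23.9 CPM per kilobase. Of the 30 tested members, 6 had a mean over 100 CPM, 10 a mean of 10 to 100 CPM, 9 a mean of 1 to 10 CPM and 5 (Slc38a1, Slc6a4, Slc7a1, Slc7a4 and Slc7a6) a mean under 1 CPM.

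**Figure D1:**
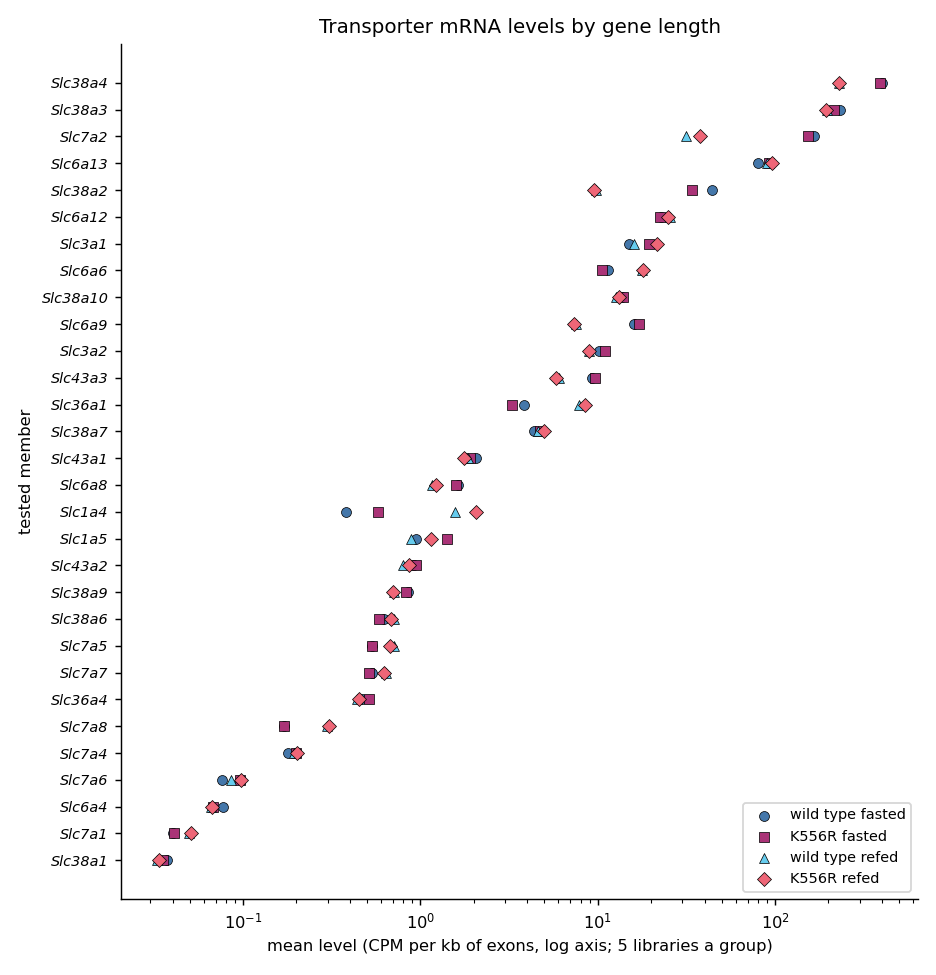
Mean level of each tested member in CPM per kilobase of exons, on a log axis, with 1 symbol for each group of 5 libraries. Slc38a4, at 313 CPM per kilobase over all libraries, is the highest, and fasted and refed symbols separate most for Slc7a2, Slc38a2 and Slc1a4.

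The 28 untested members were at or near 0. Their highest count in any library was 16, for Slc6a7, a proline carrier, and 12, for the glutamate carrier Slc1a3, and the other 26 never reached 10 counts. Slc38a8, Slc6a11, Slc6a15, Slc6a18, Slc6a2, Slc6a5 and Slc7a12 had no count in any library. A count of 0 allows, at 3 counts of the total, a level of up to 0.0592 CPM in the deepest and 0.0889 CPM in the shallowest library, as a limit for counting error only. The cystine and glutamate exchanger Slc7a11 was among the untested members, with at most 3 counts in a library.

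Together the members took up fewer reads in refed than in fasted livers. The 58 members together made up 5619 ± 633 CPM (SD, n = 5) of wild type fasted libraries and 3226 ± 306 CPM of wild type refed ones. In K556R livers the sums were 5337 ± 758 CPM fasted and 3292 ± 341 CPM refed. Every fasted library, at 4497 to 6482 CPM, lay above every refed library, at 2883 to 3855 CPM. Slc7a2, Slc38a2, Slc38a3 and Slc38a4, chosen here after their levels were seen, gave 85.9 ± 1.6% of these reads in wild type fasted livers and 74 ± 2.3% in wild type refed livers. The sums are descriptions and were not tested. The 10 hepatocyte markers moved with feeding as well, their sums being 120000 to 167000 CPM fasted and 115000 to 123000 CPM refed in wild type, and 143000 to 155000 CPM fasted and 111000 to 125000 CPM refed in K556R. These markers include Tat, an enzyme of amino acid breakdown whose own level fell after refeeding. Its mean went from 5700 to 2200 CPM in wild type and from 5560 to 2230 CPM in K556R. The part of the hepatocyte markers in the sums of the members was not tested.

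Single members rose or fell after refeeding, and 11 did so in both genotypes. The test was edgeR's quasi-likelihood test, with group and batch in the model and p-values adjusted by Benjamini and Hochberg over all 13995 genes; a member was called at an adjusted p under 0.05. In wild type livers 4 of 30 tested members were higher after refeeding (13.3%, against 20.7% of all genes tested) and 9 were lower (30%, against 24% of all genes). In K556R livers 4 were higher (13.3%, against 19.6%) and 7 were lower (23.3%, against 20.1%). The members' shares were thus near the background in each direction. The median log2 change of the tested members was -0.0825 in wild type and -0.023 in K556R, beside -0.0107 and 0.00769 over all genes tested. Upper-quartile scaling, which moved the median of all genes to 0.0625 in wild type, gave 7 members higher and 6 lower there, and RLE scaling gave 5 and 7.

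Of the members, 11 were called in both genotypes, each in the same direction, 2 in wild type alone (Slc6a8 and Slc38a3), none in K556R alone and 17 in neither. As shares of the 30 members these were 36.7% in both, 6.67% in wild type alone and 56.7% in neither, beside 33.9%, 10.8% and 49.6% of all genes tested, of which 5.68% were called in K556R alone. The members called in both were Slc1a4, Slc36a1, Slc6a6 and Slc7a8, which rose, and Slc7a2, Slc38a2, Slc6a9, Slc38a4, Slc43a3, Slc38a9 and Slc3a2, which fell. Levels of fasted and refed libraries did not overlap for 10 of 30 members in wild type, where 34.3% of all genes showed this, and for 9 of 30 in K556R, where 26.7% did. With both K556R libraries named 1_b1 left out, 15 members were called in wild type and 11 in K556R.

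**Figure D2:**
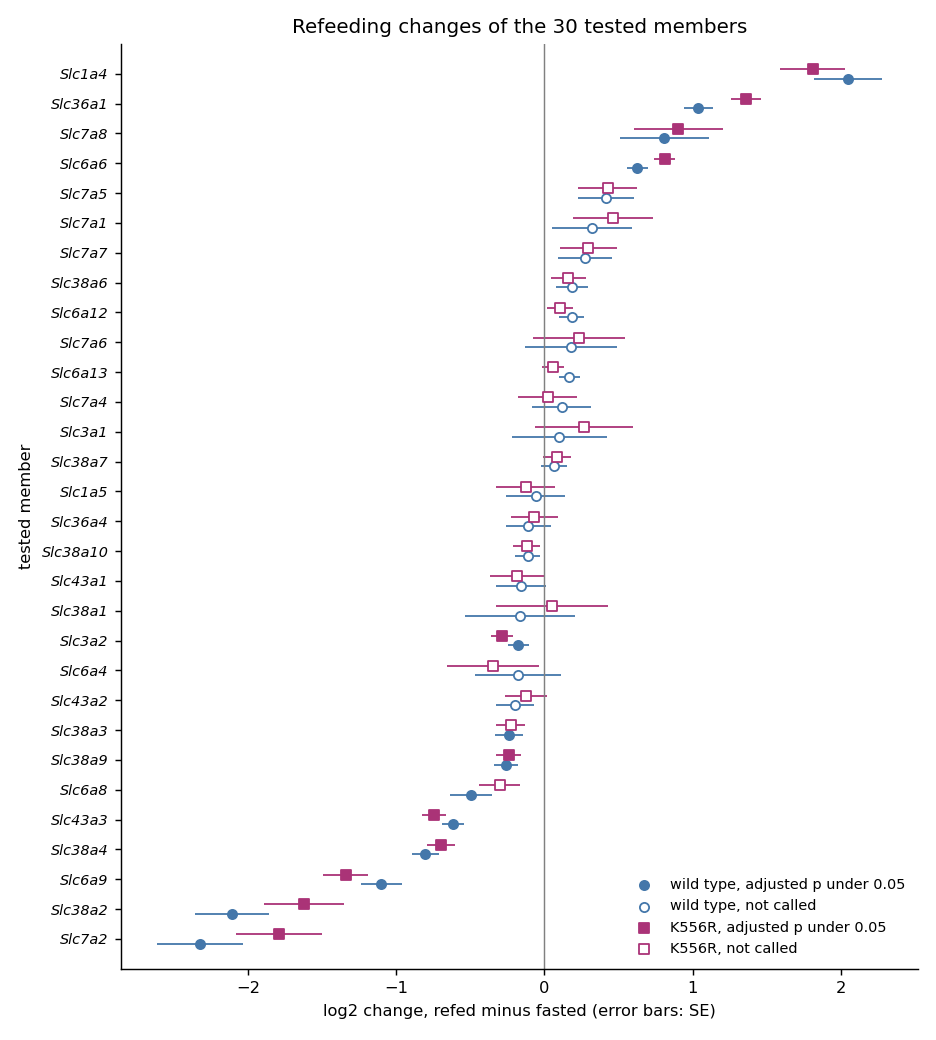
Log2 change from fasted to refed livers for the 30 tested members in wild type (circles) and K556R (squares), with standard errors; filled symbols have an adjusted p under 0.05. Changes run from -2.32 for Slc7a2 to 2.05 for Slc1a4 in wild type, and most members lie between -0.5 and 0.5 in both genotypes.

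Slc7a2, the cationic amino acid carrier CAT-2 that takes up arginine and lysine at high capacity in hepatocytes, fell most. The gene lies at chr8:40862396-40922308 on the plus strand of GRCm38. Values of a group are given here and below in the order 1_b1, 2_b1, 3_b1, 4_b1 and 1_b2, and for K556R refed in the order 1_b1, 2_b1, 1_b2, 2_b2 and 3_b2. Slc7a2 was at 1340, 1750, 1660, 1840 and 916 CPM in wild type fasted libraries and at 265, 436, 208, 247 and 282 CPM in wild type refed ones. It was at 1820, 1090, 2010, 1260 and 831 CPM in K556R fasted libraries and at 728, 247, 236, 204 and 298 CPM in K556R refed ones. No refed library reached the lowest fasted library of its genotype, and K556R refed 1_b1 was well above the other refed libraries.

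The fall in Slc7a2 was 5.01-fold in wild type (log2 change -2.32, SE 0.29, adjusted p = 3.86e-06 with edgeR), and 0.9% of all genes tested changed by more. In K556R it was 3.46-fold (log2 change -1.79, SE 0.29, adjusted p = 9.62e-05), and without the 2 libraries that stand apart the K556R log2 change was -2.16. Within batch 1 the log2 change was -2.51 in wild type and -1.66 in K556R, and within batch 2 it was -1.7 and -1.76. Slc7a1, the widely expressed cationic carrier CAT-1, stood at 0.465 CPM in wild type fasted and 0.572 CPM in wild type refed livers and was not called.

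Among the system A and N carriers, Slc38a2 and Slc38a4 fell in both genotypes. Slc38a2, also called SNAT2, moves small neutral amino acids such as alanine with sodium and lies at chr15:96687392-96699730 on the minus strand. It was at 259, 359, 529, 630 and 167 CPM in wild type fasted and at 85, 83.5, 91.3, 83.4 and 88 CPM in wild type refed libraries. In K556R it was at 330, 311, 377, 316 and 175 CPM fasted and at 90.4, 73, 71.9, 83.1 and 100 CPM refed. Fasted levels were widely spread and refed levels close together, and the groups did not overlap in either genotype.

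Slc38a2 fell 4.33-fold in wild type (log2 change -2.11, SE 0.25, adjusted p = 2.79e-06, edgeR) and 3.08-fold in K556R (log2 change -1.62, SE 0.27, adjusted p = 0.000121). The fasted library of batch 2 was the lowest of its group in each genotype, at 167 and 175 CPM, against 259 to 630 CPM in the fasted libraries of batch 1. The log2 change was accordingly -2.37 in wild type and -2.03 in K556R within batch 1, and -0.923 and -1.05 within batch 2. In these same 2 libraries Slc7a2, at 831 to 916 CPM, was also under its range in fasted batch 1 libraries, 1090 to 2010 CPM, and Slc38a4, at 1450 and 1520 CPM, under its range of 1560 to 1920 CPM. The messenger RNA of Pck1, a gluconeogenic enzyme of the fasted liver, was at 5080 CPM in the wild type one. That was under its range of 6360 to 8020 CPM in the wild type fasted libraries of batch 1. In the K556R one Pck1 was at 6340 CPM, within its range of 4860 to 7280 CPM in the K556R fasted libraries of batch 1. The part of batch in the size of these changes was not tested further, since batch 2 held 1 fasted library of each genotype.

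Slc38a4 (SNAT4), a system A carrier most abundant in liver, lies beside Slc38a2 at chr15:96994820-97055956 on the same strand. It was at 1640, 1840, 1630, 1920 and 1520 CPM in wild type fasted and 1050, 1110, 882, 894 and 963 CPM in wild type refed libraries. K556R libraries held 1810, 1560, 1920, 1580 and 1450 CPM fasted and 1190, 922, 944, 883 and 951 CPM refed. Every fasted library stood above every refed one, with a log2 change of -0.802 (SE 0.09, adjusted p = 6.1e-07, edgeR) in wild type and -0.695 (SE 0.094, adjusted p = 8.85e-06) in K556R. The fall was thus 1.74-fold and 1.62-fold, smaller than those of Slc38a2.

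Slc38a3 (SNAT3), a system N carrier of glutamine and histidine, changed little. Its level was 862 to 1220 CPM in wild type refed against 1090 to 1510 CPM in wild type fasted livers, with overlap, and the log2 change of -0.239 (SE 0.093) had an adjusted p of 0.0431 by edgeR in wild type. In K556R the log2 change was -0.226 with an adjusted p of 0.0738. Leaving out a single library ended the wild type call in 10 cases, at log2 changes of -0.254 to -0.178: K556R refed 2_b1 and 3_b2, wild type refed 3_b1, 4_b1 and 1_b2, K556R fasted 1_b1 and 1_b2, and wild type fasted 2_b1, 4_b1 and 1_b2. It also ended within batch 1 (log2 change -0.189, adjusted p = 0.186), within batch 2 (-0.417, adjusted p = 0.12) and with upper-quartile scaling (-0.167, adjusted p = 0.144). The K556R change was called without wild type refed 1_b1, at -0.234. Slc38a1 (SNAT1) was under 1 CPM in all groups on average and was not called.

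Of the other Slc38a members, Slc38a9, the lysosomal arginine sensor that signals to mTORC1, fell by 0.257 on the log2 scale in wild type (SE 0.081, adjusted p = 0.0131, edgeR) and by 0.239 in K556R (SE 0.085, adjusted p = 0.0308). Its group means were 14.3 and 13.8 CPM fasted and 11.9 and 11.6 CPM refed. The wild type call was lost without wild type fasted 4_b1 (log2 change -0.197). The K556R call was lost without K556R fasted 1_b1, 2_b1 or 3_b1 or K556R refed 2_b1, at -0.231 to -0.165. Within batch 1 the log2 change was -0.23 in wild type (adjusted p = 0.0767) and -0.287 in K556R (adjusted p = 0.0887). Within batch 2, with 1 library in each wild type group and 1 K556R fasted library, it was -0.356 (adjusted p = 0.144) and -0.097 (adjusted p = 0.585). Upper-quartile scaling ended both calls, at -0.183 (adjusted p = 0.0733) and -0.181 (adjusted p = 0.102). Slc38a6, Slc38a7 and Slc38a10 were not called, with log2 changes of -0.112 to 0.187 in wild type.

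Slc1a4 rose most of all members. It encodes ASCT1, a sodium-dependent exchanger of alanine, serine, cysteine and threonine, and lies at chr11:20302180-20332713 on the minus strand. Its level was 1.68, 1.53, 1.05, 1.73 and 1.44 CPM in wild type fasted and 5.29, 7.34, 4.97, 7.21 and 6.06 CPM in wild type refed libraries. In the mutant livers its level was 2.97, 2.46, 1.24, 1.58 and 3.14 CPM fasted and 11, 6.21, 7.64, 8.56 and 7.01 CPM refed. All 10 refed libraries stood above all 10 fasted ones.

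The rise in Slc1a4 was 4.14-fold in wild type (log2 change 2.05, SE 0.23, adjusted p = 6.47e-07, edgeR) and 3.5-fold in K556R (log2 change 1.81, SE 0.22, adjusted p = 3.62e-06). Within batch 1 the log2 change was 2.05 in wild type and 2.07 in K556R, and within batch 2 it was 2.07 and 1.3. Its near relative Slc1a5, the glutamine exchanger ASCT2, did not pass the test for refeeding in either genotype. The log2 change of Slc1a5 was -0.0579 (SE 0.2) in wild type and -0.126 (SE 0.2) in K556R.

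Slc36a1 also rose in both genotypes. It encodes PAT1, a carrier that moves small neutral amino acids together with protons and is found in lysosomes as well as at the cell surface, and lies at chr11:55204350-55236330 on the plus strand. It was at 22.8, 22.2, 19.2, 16.9 and 26.8 CPM in wild type fasted and 44.8, 44.3, 46.1, 45.8 and 40.1 CPM in wild type refed libraries. The K556R values were 17.7, 18.8, 18.2, 17.2 and 20.7 CPM fasted and 49.3, 54, 46.7, 42.9 and 46.4 CPM refed. Fasted and refed libraries were far apart in both genotypes.

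The rise in Slc36a1 was 2.05-fold in wild type (log2 change 1.04, SE 0.096, adjusted p = 6.47e-08, edgeR) and 2.56-fold in K556R (log2 change 1.36, SE 0.1, adjusted p = 9.08e-09). Within batch 2, where each fasted group has 1 library, the log2 change was 0.583 in wild type and 1.12 in K556R, against 1.16 and 1.52 within batch 1. The other tested member of this family, Slc36a4, was at 2.85 to 3.34 CPM on average in all groups and was not called.

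**Figure D3:**
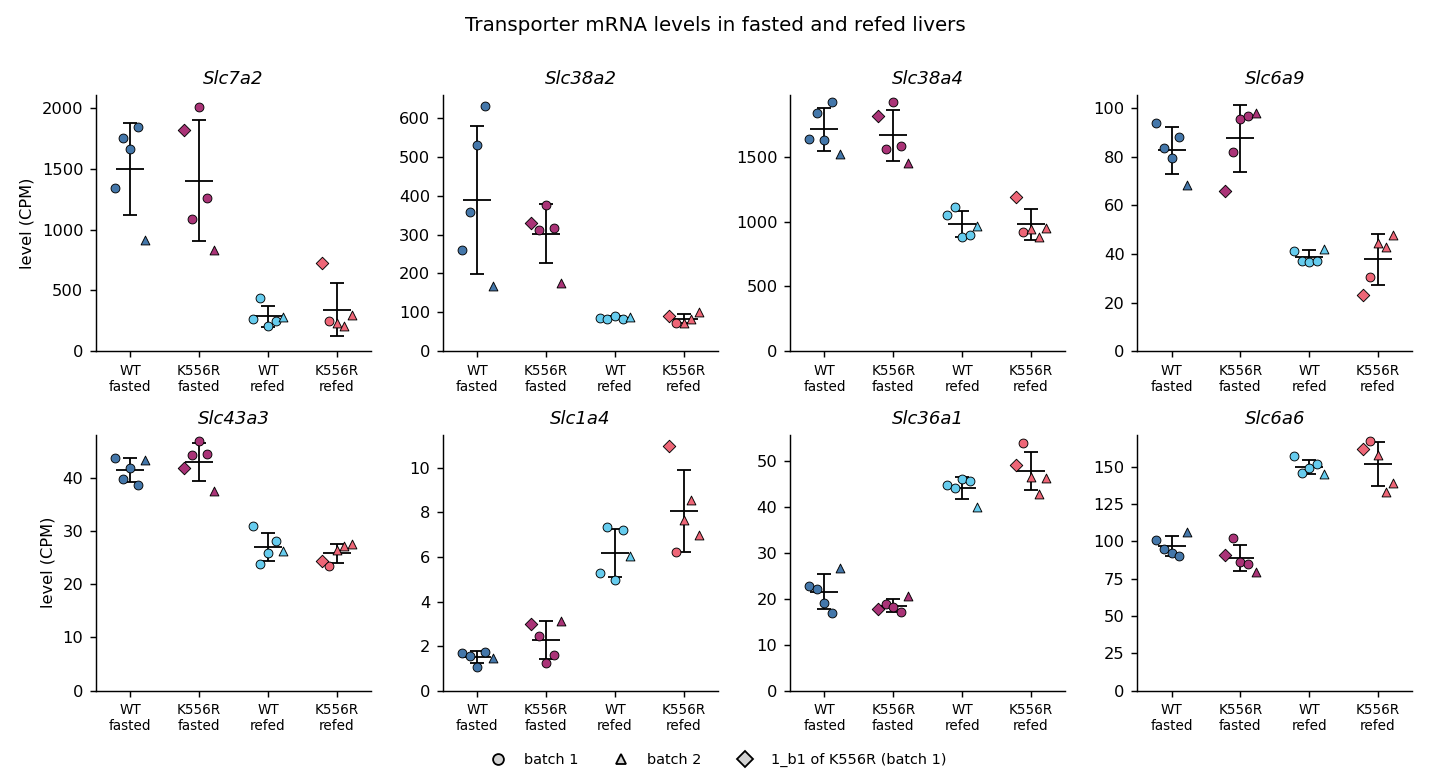
Levels in CPM of 8 members called in both genotypes, with 1 symbol for each library, the mean as a line and the SD as error bars (n = 5). Slc7a2, Slc38a2, Slc38a4, Slc6a9 and Slc43a3 are lower and Slc1a4, Slc36a1 and Slc6a6 higher in refed libraries, with no overlap within a genotype.

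The promoters of the 2 members with the largest rises and of Slc38a2, which fell, are shown to compare their sequence at the transcription start. They are from RefSeq on GRCm38.p6, 150 bases before the annotated start and 10 bases from it on, 5′ to 3′ on the gene's strand, and capitals mark matches to the motifs searched. The Slc1a4 window is chr11:20332704-20332863 on the minus strand, that of Slc36a1 chr11:55204190-55204349 on the plus strand and that of Slc38a2 chr15:96699719-96699878 on the minus strand.
Slc1a4: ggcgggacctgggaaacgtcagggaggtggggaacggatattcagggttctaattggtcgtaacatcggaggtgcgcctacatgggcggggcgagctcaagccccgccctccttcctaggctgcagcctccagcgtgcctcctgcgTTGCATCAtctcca
Slc36a1: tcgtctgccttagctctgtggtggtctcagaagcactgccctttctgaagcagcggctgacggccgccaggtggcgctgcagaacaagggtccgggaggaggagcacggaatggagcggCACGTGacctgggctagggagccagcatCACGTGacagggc
Slc38a2: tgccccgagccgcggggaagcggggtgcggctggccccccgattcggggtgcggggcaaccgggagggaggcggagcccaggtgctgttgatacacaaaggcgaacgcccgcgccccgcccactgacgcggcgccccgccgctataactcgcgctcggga
Motifs were searched on both strands over the whole table entry, 250 bases before to 50 bases after the start. TGATGNAA, the composite element of C/EBP and ATF factors, was matched in Slc1a4 on the opposite strand, as TTGCATCA, from 4 bases before the start. CACGTG, the E-box, was matched at 2 places in Slc36a1, from 31 and from 3 bases before the start. Among all 32851 promoters searched, 3.97% held TGATGNAA and 7.15% held CACGTG. The forkhead motif GTAAACA was held by 3.65% and the cyclic AMP response element TGACGTCA by 1.79%, and none of the 4 motifs was matched in Slc38a2. The table held 61 promoters of 40 of the 58 members, and 3 members had TGATGNAA (Slc1a4, Slc7a7 and Slc7a11), 8 had CACGTG, 2 had GTAAACA and 1 had TGACGTCA. Counted by promoter, as the shares above are, TGATGNAA was in 4 of the 61, CACGTG in 8, GTAAACA in 2 and TGACGTCA in 1. A match is a description of the letters and not a bound site. Sequence outside this window, such as introns, was not searched, so the lack of a match says nothing of sites elsewhere.

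Among the Slc6a carriers, Slc6a9 fell and Slc6a6 rose. Slc6a9 encodes the glycine carrier GlyT1. It was at 94, 83.5, 79.3, 88 and 68.5 CPM in wild type fasted and 41.1, 37.3, 36.5, 37.3 and 42.2 CPM in wild type refed libraries. K556R livers gave 65.7, 81.8, 95.3, 96.8 and 97.9 CPM fasted and 23.1, 30.5, 44.6, 42.8 and 47.9 CPM refed. K556R fasted 1_b1 and K556R refed 1_b1 were the lowest of their groups, and fasted and refed libraries did not overlap.

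Slc6a9 fell 2.14-fold in wild type (log2 change -1.1, SE 0.14, adjusted p = 4.31e-06, edgeR) and 2.53-fold in K556R (log2 change -1.34, SE 0.15, adjusted p = 1.79e-06). Within batch 2 the wild type log2 change was -0.699. Slc6a9 was the only one of the 8 Slc6a carriers of amino acids that was tested, the others being too low.

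Slc6a6, the taurine carrier, was at 101, 95, 92.1, 90.1 and 106 CPM in wild type fasted and 157, 146, 149, 152 and 145 CPM in wild type refed libraries. In K556R it was at 90.9, 102, 86, 84.7 and 79.3 CPM fasted and 162, 167, 158, 133 and 139 CPM refed. The groups did not overlap, and the rise was 1.54-fold in wild type (log2 change 0.626, SE 0.071, adjusted p = 6.6e-07, edgeR) and 1.75-fold in K556R (log2 change 0.811, SE 0.074, adjusted p = 1.02e-07). Within batch 2 alone the wild type log2 change was 0.457, with an adjusted p of 0.072.

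Slc6a8, the creatine carrier, fell in wild type from 8.51 ± 0.499 to 6.03 ± 0.314 CPM (SD, n = 5), a log2 change of -0.493 (SE 0.14, adjusted p = 0.00551, edgeR). In K556R the log2 change of -0.302 had an adjusted p of 0.0922, and it was called when K556R refed 1_b1 was left out (-0.513, adjusted p = 0.00224) or K556R fasted 2_b1 (-0.391, adjusted p = 0.0206). It was -0.012 within batch 1 and -0.728 within batch 2. The neighbours Slc6a12 and Slc6a13 were not called. Slc6a13 had a log2 change of 0.169 in wild type, with an adjusted p of 0.0565, and was called in 15 of 35 alternative fits, 7 of which left out 1 library (wild type fasted 4_b1, wild type refed 2_b1, K556R fasted 1_b1, 3_b1 and 1_b2, or K556R refed 1_b1 and 2_b1, at 0.169 to 0.216). Slc6a4, the serotonin carrier, was at 0.397, 0.281, 0.21, 0.278 and 0.581 CPM in wild type fasted and 0.224, 0.285, 0.391, 0.37 and 0.216 CPM in wild type refed libraries, with overlap.

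Of the heavy chains, Slc3a2 changed slightly and Slc3a1 did not pass the test. Slc3a2, known as 4F2hc or CD98, is the partner of the system L light chains. Its group means were 35.7 and 39 CPM in wild type and K556R fasted livers and 31.6 CPM in both refed groups. The log2 change was -0.287 in K556R (SE 0.074, adjusted p = 0.00402, edgeR) and -0.175 in wild type (SE 0.071, adjusted p = 0.0496), close to the threshold. The wild type call was lost under 14 of the 20 fits that left out 1 library, at log2 changes of -0.18 to -0.138; in these fits the library left out was any but K556R refed 1_b1, wild type refed 1_b1, K556R fasted 3_b1, wild type refed 2_b1, K556R fasted 1_b1 and wild type fasted 1_b2. The K556R call was lost without K556R fasted 1_b2, at -0.202 with an adjusted p of 0.0503, and within batch 1 (adjusted p = 0.0517). Within batch 2 alone the wild type log2 change was 0.0235, of the opposite sign. DESeq2 (-0.159, adjusted p = 0.0663) and upper-quartile scaling (-0.101, adjusted p = 0.227) also ended the wild type call.

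The light chains were much lower than their heavy chains per length. The 6 Slc7a light chains of Slc3a2 (Slc7a5, Slc7a6, Slc7a7, Slc7a8, Slc7a10 and Slc7a11) summed to 1.31 ± 0.22 CPM per kilobase in wild type fasted livers, against 10.1 ± 0.81 for Slc3a2 (SD, n = 5). In wild type refed livers the sum was 1.74 ± 0.25 against 8.96 ± 0.54 CPM per kilobase. For Slc3a1, known as rBAT, the contrast was larger. Its light chains Slc7a9 and Slc7a13 had 2 to 5 counts in all libraries of a group together. Slc3a1 was at 15 ± 3 CPM per kilobase in wild type fasted and 16.1 ± 1.6 in wild type refed livers (SD, n = 5). In K556R it was at 19.4 ± 13 fasted and 21.6 ± 9.9 CPM per kilobase refed, with 1 library of each group far above the others. Slc7a6 and Slc7a7, which trade cationic for neutral amino acids, were not called.

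Slc7a8, the system L light chain LAT2, rose from a low level. It was at 0.839, 1.33, 0.721, 0.39 and 0.946 CPM in wild type fasted and 1.2, 1.47, 1.3, 1.57 and 1.88 CPM in wild type refed libraries. K556R libraries held 1.06, 1.09, 0.645, 0.74 and 0.733 CPM fasted and 2.89, 1.01, 1.12, 1.34 and 1.33 CPM refed. The groups overlapped in both genotypes, and K556R refed 1_b1 stood well above the others of its group.

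The log2 change of Slc7a8 was 0.809 in wild type (SE 0.3, adjusted p = 0.0317, edgeR) and 0.903 in K556R (SE 0.3, adjusted p = 0.0227). Without K556R refed 1_b1 the K556R value was 0.385, with an adjusted p of 0.286, and the call was also lost without K556R fasted 3_b1 or 1_b2 (adjusted p of at least 0.0543). The wild type call was lost without wild type fasted 1_b1, 3_b1 or 4_b1 or wild type refed 4_b1 or 1_b2, at 0.634 to 0.796, and within batch 1 (0.752, adjusted p = 0.109) and batch 2 (0.985, adjusted p = 0.101). The K556R call was lost within batch 2 (0.78, adjusted p = 0.0976) and in limma with sample quality weights (0.533, adjusted p = 0.166), and without the 2 libraries that stand apart (0.478, adjusted p = 0.189). Slc7a5 (LAT1), Slc43a1 (LAT3) and Slc43a2 (LAT4) were not called, and the change of Slc7a5 was 0.418 (adjusted p = 0.0839) in wild type and 0.428 (adjusted p = 0.0972) in K556R.

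Slc43a3, which is related to LAT3 and LAT4 by sequence but carries purine bases, fell in both genotypes. It was at 43.8, 39.8, 41.8, 38.6 and 43.4 CPM in wild type fasted and 30.9, 23.9, 25.9, 28.2 and 26.2 CPM in wild type refed libraries. In the mutant livers its level was 41.9, 44.3, 47, 44.5 and 37.5 CPM fasted and 24.4, 23.5, 26.4, 27.2 and 27.5 CPM refed. The groups were separate, and the log2 change was -0.619 in wild type (SE 0.074, adjusted p = 1.34e-06, edgeR) and -0.744 in K556R (SE 0.079, adjusted p = 5.23e-07). Within batch 2 the K556R value was -0.48.

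Of the 13 members called in wild type, Slc7a2, Slc38a2, Slc38a4, Slc6a9, Slc43a3, Slc1a4 and Slc36a1 were called in both genotypes under all 35 alternative fits. Slc6a6 failed in 1 fit, that of batch 2 alone in wild type. All 35 fits draw on the same 20 libraries, so they are not separate tests. The fit of batch 2 alone has 1 library in each wild type group.

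No member differed between K556R and wild type livers in edgeR's test. The number called was 0 of 30 in fasted livers, refed livers, both averaged, and the interaction of genotype with feeding. Over all genes, the share called was 0% in each direction in fasted livers, in refed livers and for the interaction, and 0.00715% higher and 0.0214% lower averaged over feeding. DESeq2 and limma with sample quality weights called 0 members in each of these contrasts as well. At an unadjusted p under 0.05 there were 3 members higher and 1 lower in K556R in fasted livers, where 3.15% and 4.99% of all genes passed, and 1 higher in refed livers, where 2.95% did. Averaged over feeding there were 3 higher, where 4.26% of all genes passed, and for the interaction 1, where 2.67% did. Levels of the genotypes overlapped for all 30 members in fasted and in refed livers, while 0.907% and 0.65% of all genes did not overlap.

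**Figure D4:**
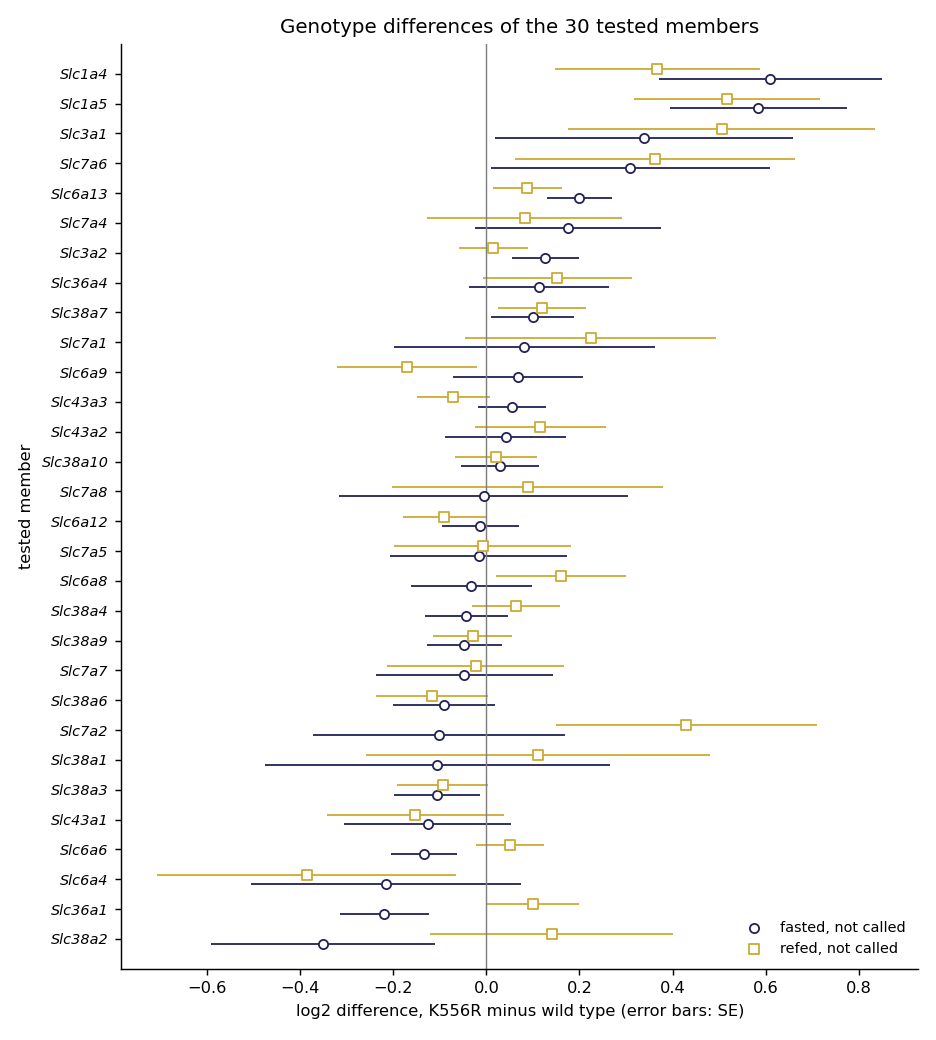
Log2 difference between K556R and wild type for the 30 tested members in fasted (circles) and refed (squares) livers, with standard errors. All symbols are open because no member had an adjusted p under 0.05, and the largest fasted differences are those of Slc1a4, at 0.61, and Slc1a5, at 0.584.

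Slc1a5 had the lowest unadjusted p of the members in fasted and in refed livers. It was at 3.91, 4.47, 3.9, 4.79 and 2.67 CPM in wild type fasted and 9.24, 4.98, 4.65, 5.9 and 4.56 CPM in K556R fasted libraries. In refed livers it was at 4.34, 3.68, 2.98, 3.7 and 3.82 CPM in wild type and 7.88, 4.87, 4.08, 2.94 and 4.22 CPM in K556R. The genotypes overlapped in both feeding states, and K556R fasted 1_b1 and K556R refed 1_b1 were the highest libraries.

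The log2 difference of Slc1a5 was 0.584 in fasted livers (SE 0.19, adjusted p = 0.4, edgeR), 0.516 in refed livers (SE 0.2, adjusted p = 0.964) and 0.55 averaged over both (SE 0.14, adjusted p = 0.304). Without these 2 libraries the average was 0.319 (adjusted p = 0.296). It was 0.671 within batch 1 and 0.365 within batch 2.

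Slc1a4 had a log2 difference of 0.61 in fasted livers (SE 0.24, adjusted p = 0.501, edgeR) and of 0.367 in refed livers (SE 0.22, adjusted p = 0.964). The refed value was 0.0943 without the 2 libraries that stand apart. The fasted value was 0.453 within batch 1 and 1.12 within batch 2. Slc6a13 was at 239, 243, 222, 247 and 209 CPM in wild type fasted and 269, 272, 231, 274 and 288 CPM in K556R fasted libraries, with overlap. Its refed levels were 270, 243, 251, 268 and 274 CPM in wild type and 253, 301, 281, 264 and 296 CPM in K556R. The fasted difference of Slc6a13 was 0.2 on the log2 scale (SE 0.07, adjusted p = 0.435), and 0.139 within batch 1 and 0.456 within batch 2.

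On the lower side, Slc36a1 had a fasted log2 difference of -0.219 (SE 0.096, adjusted p = 0.548, edgeR) and Slc6a6 one of -0.134 (SE 0.07, adjusted p = 0.664). Slc36a1 also had the lowest unadjusted p of the members for the interaction, 0.32 (SE 0.14, adjusted p = 1), which is the difference between its 1.36 in K556R and 1.04 in wild type. Slc6a4 had the lowest p on the lower side in refed livers, with a log2 difference of -0.386 (SE 0.32, adjusted p = 0.964). The sign turned with the batch: the value was -0.964 within batch 1, 0.87 within batch 2 and -0.17 without the 2 libraries that stand apart. Its K556R libraries held 0.222, 0.311, 0.181, 0.287 and 0.523 CPM fasted and 0.13, 0.198, 0.38, 0.42 and 0.393 CPM refed. For Slc7a2 and Slc38a2 the interaction was 0.532 (SE 0.39) and 0.49 (SE 0.35), both with an adjusted p of 1. The interaction of Slc7a2 was 0.195 without the 2 libraries that stand apart and -0.0658 within batch 2, and that of Slc38a2 was -0.125 within batch 2. Of the 13 members called in wild type, 7 had a smaller absolute change in K556R. The 13 were chosen by their wild type change, which favours a smaller K556R value, so this count says nothing of the genotype.

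Slc3a1, named here after its values were seen, had 2 libraries far from the rest. It was at 34.4, 41.7, 23.1, 33.8 and 37.6 CPM in wild type fasted and 31.3, 39.9, 35.1, 36.7 and 40.2 CPM in wild type refed libraries. The K556R values were 97.3, 31.5, 31.3, 31.2 and 28.9 CPM fasted and 89, 40.7, 36.2, 41.4 and 38.3 CPM refed. K556R fasted 1_b1 and K556R refed 1_b1 were thus above all of the other 18 libraries, at 23.1 to 41.7 CPM. They are the libraries that stood apart in proliferation and lymphocyte markers. Slc3a1 was not alone in this. Both libraries were also above the range of the other 18 for Slc1a5, Slc36a4, Slc6a8 and Slc7a6, and below it for Slc43a1 and Slc6a12. The part of other cells in these levels was not tested.

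The log2 difference of Slc3a1 between genotypes, averaged over feeding, was 0.422 (SE 0.23, adjusted p = 0.591, edgeR), and -0.0418 without the 2 libraries. The refeeding change in K556R was 0.269 (adjusted p = 0.56), and 0.746 (adjusted p = 0.0156) without K556R fasted 1_b1. Exons of Slc3a1 share 601 bases with Prepl on the opposite strand, and reads of the pair cannot be told apart where the strand is not known. Prepl was at 26 and 33.2 CPM in the 2 libraries and at 29.3 to 35 CPM in the others.

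**Figure D5:**
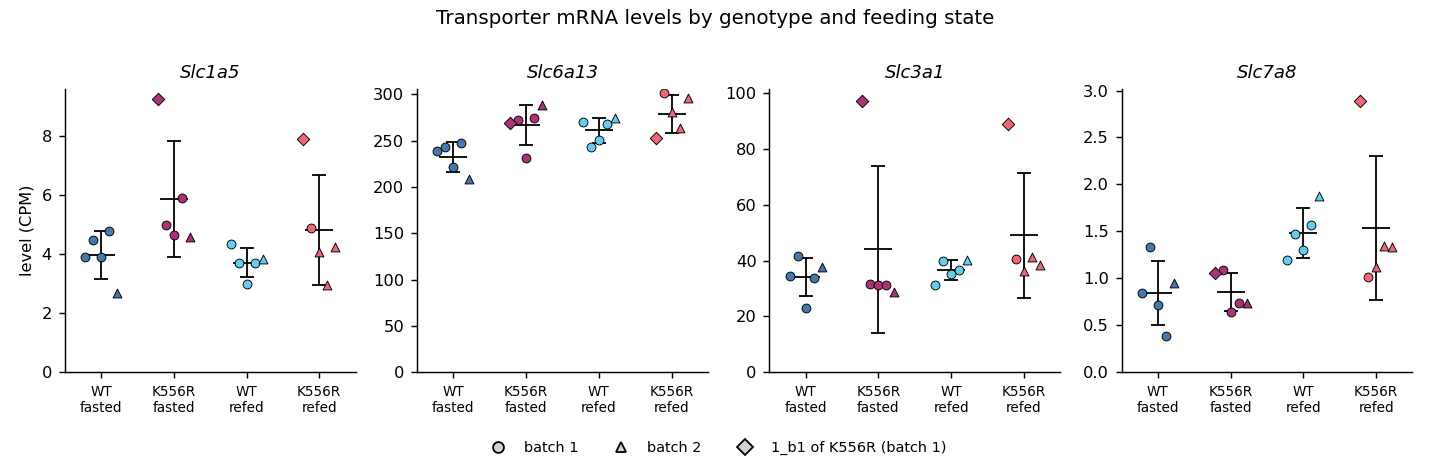
Levels in CPM of Slc1a5, Slc6a13, Slc3a1 and Slc7a8, with 1 symbol for each library, the mean as a line and the SD as error bars (n = 5). The diamonds, K556R fasted 1_b1 and K556R refed 1_b1, are at 97.3 and 89 CPM for Slc3a1 and at 9.24 and 7.88 CPM for Slc1a5, above all other libraries.

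Other genes of amino acid handling were read from the same fit. Of 27 tested amino acid catabolism enzymes, 3 rose and 10 fell after refeeding in wild type, and 2 rose and 8 fell in K556R. These were 11.1% and 37% of the list in wild type, beside 20.7% and 24% of all genes, and 7.41% and 29.6% in K556R, beside 19.6% and 20.1%. The 4 genes of the list with the lowest p all fell. Got1, an aspartate aminotransferase, fell by 2 on the log2 scale (SE 0.24, adjusted p = 3.15e-06, edgeR), Tat, the tyrosine aminotransferase, by 1.32 (SE 0.22, adjusted p = 6.46e-05) and Sds, the serine dehydratase, by 1.54 (SE 0.29, adjusted p = 0.00034) in wild type. The members of the list that rose, named after their values were seen, were Hal, the histidine ammonia-lyase, by 0.723 (adjusted p = 0.00319), Cbs, the cystathionine beta-synthase, by 0.391 (adjusted p = 0.00911) and Nags, which makes N-acetylglutamate, by 0.311 (adjusted p = 0.028). The median log2 change of these enzymes was -0.0842 in wild type and -0.208 in K556R, beside -0.0107 and 0.00769 over all genes tested.

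Of 18 tested genes of the amino acid stress pathway of GCN2 and ATF4 outside the transporters, 2 rose and 6 fell in wild type. In K556R 1 rose and 5 fell. The list held Atf4 and Eif2ak4, the gene of GCN2, beside targets of the pathway. Sesn2 is also in the list of amino acid sensing and mTORC1 below. The shares were 11.1% and 33.3% in wild type and 5.56% and 27.8% in K556R, read against the same shares of all genes. The 4 with the lowest p again fell. Sesn2, a sensor of leucine and stress, fell by 1.62 on the log2 scale in wild type (SE 0.22, adjusted p = 6.22e-06, edgeR), Trib3 by 1.07 (adjusted p = 9.96e-05) and Chac1 by 1.73 (adjusted p = 0.000118). Atf4 itself rose by 0.558 (adjusted p = 0.000931) and Atf5, a related factor, by 0.7 (adjusted p = 0.00264) in wild type, both named after their values were seen. They were the 2 genes of the list that rose in wild type. Atf4, at 0.446 (adjusted p = 0.00953, edgeR), was the 1 that rose in K556R. Among transporters known as targets of that pathway, picked here after their values were seen, Slc38a2, Slc6a9 and Slc3a2 fell and Slc1a4 rose. The wild type call of Slc3a2 was close to the threshold. Of the other picked ones, Slc1a5, Slc7a1 and Slc7a5 were not called and Slc7a11 was too low to test.

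Of 30 tested genes of amino acid sensing and mTORC1, 8 rose and 8 fell in wild type (26.7% each, against 20.7% and 24% of all genes) and 6 rose and 4 fell in K556R (20% and 13.3%, against 19.6% and 20.1%). Flcn and Fnip1, partners in a complex that acts on the lysosomal Rag proteins, fell by 1.14 (SE 0.087, adjusted p = 7.99e-09, edgeR) and 1.39 (SE 0.12, adjusted p = 4.66e-08) on the log2 scale in wild type. Tbc1d7, a subunit of the tuberous sclerosis complex, rose by 0.924 (SE 0.09, adjusted p = 1.17e-07), and Sec13, a subunit of the GATOR2 complex and of the COPII coat, by 0.474 (SE 0.062, adjusted p = 3.85e-06).

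Of 5 tested transport genes outside the families, 3 fell in each genotype. They were Slc15a4, a lysosomal carrier of peptides and histidine (log2 change -1.08 in wild type, SE 0.11, adjusted p = 3.51e-07, edgeR), the lysosomal cystine carrier Ctns (-0.451, SE 0.062, adjusted p = 7.13e-06) and the aromatic amino acid carrier Slc16a10 (-1.03, SE 0.16, adjusted p = 2.79e-05). None of the tested genes of these 4 lists was called in a genotype contrast or the interaction.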

How the data were processed

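Levels were measured by RNA sequencing of poly-A messenger RNA from 20 liver samples in 4 groups of 5. The deposited values are raw counts of reads for each gene. The submitters' processing notes name build mm10 and the tools edgeR, DESeq2, HTSeq, STAR, STAR-Fusion and TopHat. Not given in the sources used here are the counter, its annotation and whether it used strand, so overlapping antisense genes cannot be told apart. Genes with at least 10 counts in at least 5 libraries were tested with edgeR 4.0.16 (R 4.3.3), TMM scaling and the robust quasi-likelihood test on all 20 libraries, with group and batch as terms and a threshold of 0.05 for the Benjamini-Hochberg adjusted p. CPM are counts scaled to TMM-adjusted library totals. All 58 members were found in GENCODE M21 (GRCm38), which gave the positions. The members and lists were chosen with earlier results of these data known. Library values are given for up to 5 called members a direction, by lowest p, in each refeeding contrast, for 2 a direction in the fasted, refed and interaction contrasts of genotype, called or not, and up to 4 genes are named in each pathway list. Alternatives were DESeq2 1.42.0, limma 3.58.1, other scalings and filters, a fit without the batch term, single batches, a replicate block, dispersions without robust estimates, fits of the compared groups only, and leaving out 1 library or the libraries that stand apart. The fit was tested on simulated counts for wild type refed against fasted, where it called 56.7% of genes changed 1.5-fold, 80.6% of those changed 2-fold and 98.5% of those changed 4-fold, among 13885 genes. Only 200 genes were changed there and no batch effect was put in, so these rates are not those of the refeeding test.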

Additional observations from a re-analysis of the deposited data

Results flagged for a closer look

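In 6 of 64 sets of 5 libraries (16 transporter genes in 4 groups), 1 library lay far from the other 4 of its group. Chance flags about 1 in 20 groups, and the genes were chosen with results known, so the count is not set against that share. Slc3a1 was added for its outlying libraries, and its 2 sets are not in the count. K556R fasted 1_b1 was the highest of its group for Slc3a1, at 97.3 CPM with the nearest library at 31.5 CPM, and for Slc1a5, at 9.24 CPM with the nearest at 5.9 CPM. K556R refed 1_b1 was the highest of its group for Slc3a1 (89 CPM, nearest 41.4 CPM), Slc7a2 (728 CPM, nearest 298 CPM), Slc38a4 (1190 CPM, nearest 951 CPM) and Slc7a8 (2.89 CPM, nearest 1.34 CPM). K556R refed 2_b2 was the lowest of its group for Slc3a2, at 29.6 CPM with the nearest at 31.6 CPM. K556R fasted 2_b1 was the lowest for Slc6a8, at 6.13 CPM with the nearest at 8.65 CPM.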

How the results depend on the processing

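The number of members called after refeeding was 11 to 15 in wild type and 9 to 12 in K556R when 1 library was left out. It was 13 and 11 with DESeq2 and 15 and 11 with limma. In batch 2 alone, which has 1 library in each wild type group and takes its spread from the K556R refed libraries, 7 members were called in wild type, where Slc3a2 had a log2 change of 0.0235 (adjusted p = 0.934). With the repeat number as a replicate block, 11 members were called in wild type, where Slc38a3 (adjusted p = 0.0657) and Slc3a2 (adjusted p = 0.0848) were lost, and 9 in K556R, where Slc38a9 (adjusted p = 0.149) and Slc7a8 (adjusted p = 0.111) were lost. Deviations of same-numbered libraries correlated at -0.371 to 0.648 (median -0.052 over 24 pairs, 5 of them over 0.1). The highest value was that of K556R fasted 1_b1 with K556R refed 1_b1, the libraries that stand apart, and 7 of 20 libraries correlated best with their own number, so the numbers were not taken to pair the samples. No member was called for genotype or the interaction in any of the 142 fits of these contrasts. Counts under 10 limit what can be said of the 28 untested members.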
